A study of Mus musculus with 16 samples.

Results

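Lymphatic vessels of the colon were followed here through 8 genes that mark their endothelium, among 51912 genes in the count table. The 8 are Prox1, Foxc2, Flt4, Lyve1, Pdpn, Mmrn1, Reln and Ccl21a. They were chosen by name as lymphatic endothelial markers, with earlier results of these data known. Each was matched by its GRCm38 symbol to 1 Ensembl identifier of the table. Foxc2 was too low for the filter on low counts in every comparison, and the other 7 were tested in at least 1 comparison.

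The libraries hold RNA of sorted nuclei from colonic muscularis externa with its myenteric plexus. All mice were C57BL/6, kept under specific pathogen-free conditions, and all carried the vector AAV9-CaMKII-EGFPKASH, given intravenously 5 weeks earlier. The CaMKII promoter drives an EGFP tag of the nuclear envelope, so the EGFP+ (neuronal) sort holds the nuclei that took up the vector and used that promoter. The EGFP- (non-neuronal) sort holds the other nuclei, with any neurons that were not tagged. At 14 hours before isolation the mice were injected intraperitoneally, either with 3-methylcholanthrene, an agonist of the aryl hydrocarbon receptor (AhR), or with corn oil as control. The design therefore has 4 groups of 4 libraries: neuronal and non-neuronal nuclei, each after agonist or after corn oil. The labels give no dose, sex or age, and do not say whether libraries of a group came from separate mice or pools. A p-value here thus weighs a difference against the spread among these libraries alone, and that spread may be technical.

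Total counts ran from 2663738 to 4902303 per library. Mitochondrially encoded genes held 1.77% to 6.11% of counts in neuronal libraries, 11.2% to 26.3% in non-neuronal corn oil libraries, and 10.3% to 42.8% in non-neuronal agonist libraries. Agonist replicates 1 and 2 of the non-neuronal sort exceeded 30%. The sort labels were checked with 10 neuronal genes, whose summed level was 2263 to 2787 CPM in neuronal and 139.6 to 460 CPM in non-neuronal corn oil libraries. Here and below a level is TMM-scaled CPM, a gene's count relative to its library's total after edgeR's TMM factor has been applied.

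Lymphatic endothelium lines the capillaries and collecting vessels that drain fluid, fat and immune cells from the gut wall. Its identity is set by the transcription factor Prox1, and its growth is driven by VEGF-C acting on the receptor Flt4 (VEGFR-3). Capillaries typically carry Lyve1 and attract dendritic cells with Ccl21, whereas collecting vessels have valves that depend on Foxc2.

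The gene for Ccl21 occurs in near-identical copies in the mouse, which bears on how its reads were counted. The coding sequence of Ccl21a, 402 bases long, differed from that of each of Ccl21b, Gm13304, Gm21541 and Gm10591 by T84A and C194T, counted from the first base of the start codon, with the Ccl21a base first. These 4 copies had the same coding sequence. Both positions are given here with the flanking coding bases from GENCODE M21, because reads of 75 bases that cover neither cannot be assigned to 1 copy by coding sequence. The capital marks the base that differs.
Ccl21a, bases 64 to 104: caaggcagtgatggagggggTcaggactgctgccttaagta
Ccl21b and the other 3 copies, bases 64 to 104: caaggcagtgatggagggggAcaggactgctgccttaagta
Ccl21a, bases 174 to 214: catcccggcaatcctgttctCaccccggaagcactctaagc
Ccl21b and the other 3 copies, bases 174 to 214: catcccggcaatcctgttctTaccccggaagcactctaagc

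The bases before the RefSeq start site of 6 of the 8 genes were searched for 5 short motifs on both strands, 250 bases per start site. Prox1 has 2 start sites there, so 7 windows were searched. The windows of Reln and Mmrn1 are shown because they hold GCGTG, the core that AhR with its partner ARNT is known to bind, and that of Pdpn because Pdpn was the tested gene that did not follow the others between populations. They come from RefSeq on GRCm38.p6, written along the strand of the gene, and capitals mark every match to any of the 5 motifs.
Reln, chr5:22344706-22344955, minus strand: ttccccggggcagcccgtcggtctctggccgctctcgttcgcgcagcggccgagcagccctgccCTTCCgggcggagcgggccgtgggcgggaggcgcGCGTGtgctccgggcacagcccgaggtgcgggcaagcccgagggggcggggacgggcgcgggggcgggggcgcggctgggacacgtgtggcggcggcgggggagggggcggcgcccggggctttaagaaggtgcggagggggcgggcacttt
Mmrn1, chr6:60944067-60944316, plus strand: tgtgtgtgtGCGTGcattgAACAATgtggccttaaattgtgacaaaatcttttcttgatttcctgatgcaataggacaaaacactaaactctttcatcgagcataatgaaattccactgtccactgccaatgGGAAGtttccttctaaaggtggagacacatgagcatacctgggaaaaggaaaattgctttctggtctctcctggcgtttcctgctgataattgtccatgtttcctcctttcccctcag
Pdpn, chr4:143299565-143299814, minus strand: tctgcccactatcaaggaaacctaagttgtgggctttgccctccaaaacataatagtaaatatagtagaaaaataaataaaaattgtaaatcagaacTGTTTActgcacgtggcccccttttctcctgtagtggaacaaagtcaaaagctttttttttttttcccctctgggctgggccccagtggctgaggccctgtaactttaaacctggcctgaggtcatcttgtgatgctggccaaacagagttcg

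GCGTG was present in 2 of the 7 windows, those of Reln (152 to 148 bases before the start) and Mmrn1 (241 to 237 bases before), and in 28.2% of 32851 RefSeq windows of this length. The ETS core GGAAG was present in 6 of 7, those of Ccl21a, Flt4, Mmrn1 and Reln and both of Prox1, and in 64.1% of all windows. The FOX core TAAACA was present in Pdpn and 1 window of Prox1 and in 12% of all windows, and the SOX core AACAAT in Mmrn1 and in 9.42%. The GATA core AGATAA was in none of the 7 and in 9.99% of all windows. No 2 of these motifs overlapped in the windows shown. A match is a string of letters and does not show binding. The Mmrn1 window lies within the span of a longer GENCODE transcript of that gene, between its exons. The windows of Flt4 (chr11:49609429-49609678) and 1 of Prox1 (chr1:190169516-190169765) also lie inside the GENCODE span of their gene. Not every window is thus sequence upstream of the whole gene.

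Lymphatic endothelial RNA was in the non-neuronal sort. After corn oil, the summed level of the 8 genes was 1044 ± 386 CPM (SD, n = 4) in non-neuronal nuclei and 23.1 ± 7.30 CPM in neuronal nuclei. Between neuronal and non-neuronal nuclei, 6 of the 7 tested genes were lower in neuronal nuclei by edgeR's quasi-likelihood test, where 13.5% of all 15285 genes tested were called lower. The exception was Pdpn. The same 6 had no overlap between the libraries of the groups, as had 15.5% of all genes in that direction. Of them, Prox1, Flt4, Lyve1, Mmrn1 and Ccl21a had too few counts to pass the filter within neuronal libraries alone. They entered through the non-neuronal group and could hardly be called other than lower. The shares over all genes are therefore not a matched background. The median log2 fold change of the 7 genes was -5.69, against -0.11 over all genes tested, and bulk libraries cannot separate fewer lymphatic nuclei from less RNA per nucleus.

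**Figure D1:**
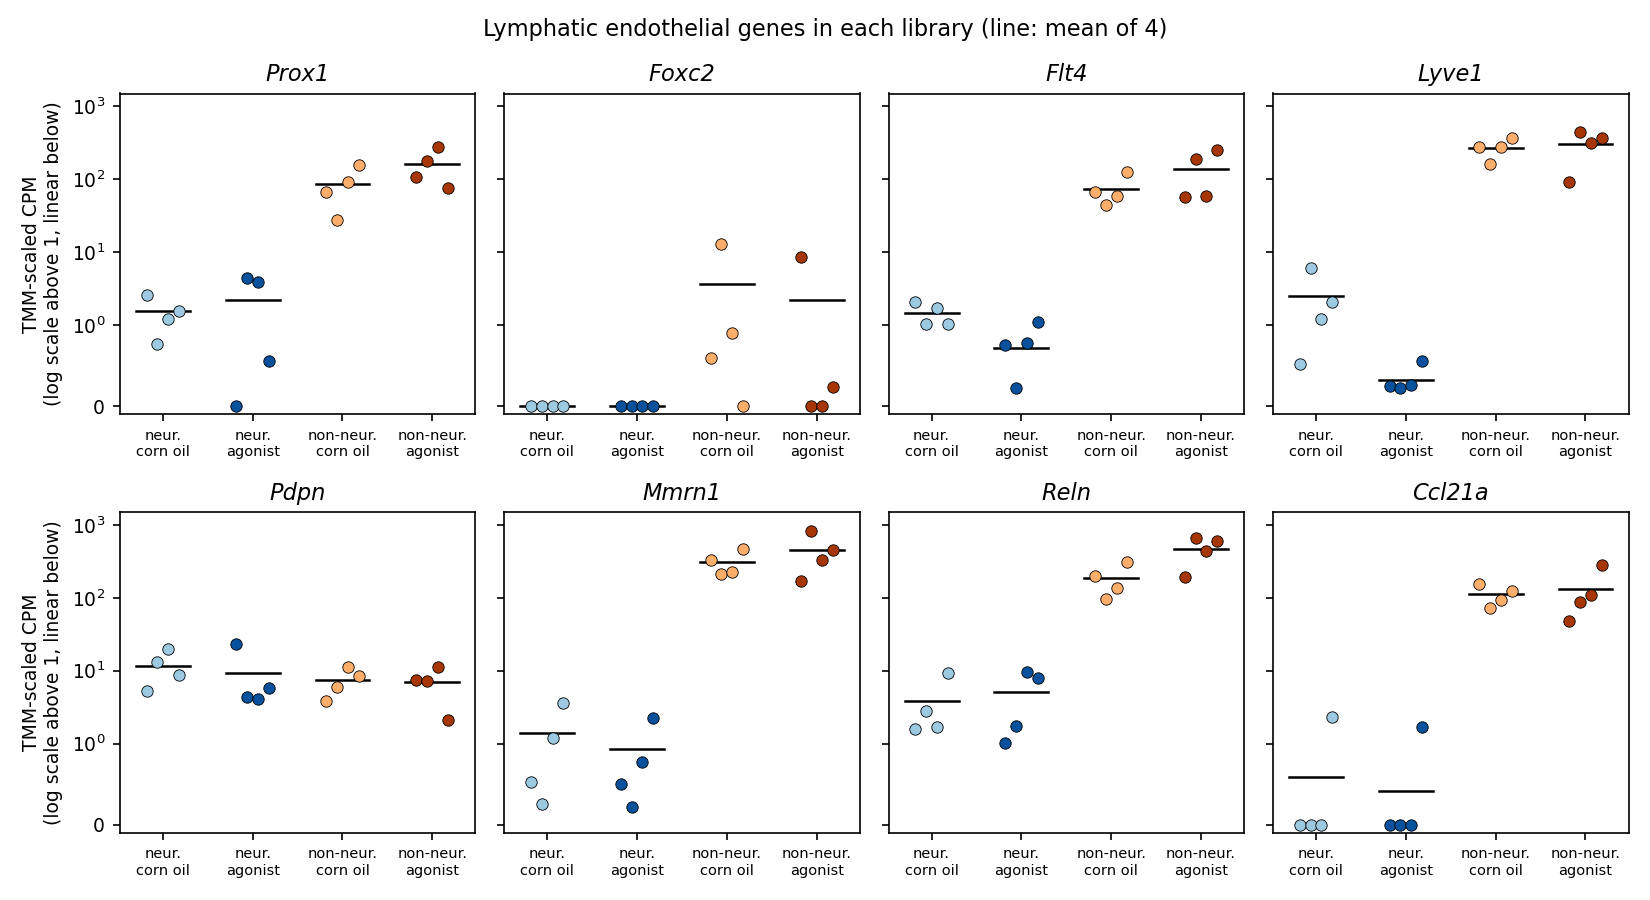
TMM-scaled CPM (vertical axis, linear below 1 and log above) of the 8 genes in each of the 16 libraries, with a point per library in order of replicate and a line at the mean of 4. All genes but Pdpn and Foxc2 were between 27.8 and 829 CPM in every non-neuronal library and under 10 CPM in every neuronal one.

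The transcription factors came at different levels. Prox1, the homeobox factor that commits endothelium to the lymphatic fate, lies on chromosome 1 at 190118035-190170714. Its non-neuronal corn oil libraries held 67.2, 27.8, 92.7 and 157 CPM, and the neuronal ones 2.62, 0.770, 1.21 and 1.57 CPM. The groups did not overlap, and the log2 fold change of neuronal over non-neuronal nuclei was -5.69 (SE 0.63, adjusted p = 4.2e-05, edgeR). The non-coding genes Prox1os and Gm28172 overlap Prox1 on the opposite strand, and the strand setting of the counting is not given in the sources used here.

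Foxc2, the forkhead factor of lymphatic valves, lies on chromosome 8 at 121116171-121118895. It had 0 counts in all 8 neuronal libraries. In non-neuronal corn oil replicates 1 to 4 it had 2, 35, 3 and 0 counts, and in agonist replicates 1 to 4 it had 23, 0, 0 and 1. Of 40 corn oil counts, 35 were thus in 1 library, and of 24 agonist counts, 23 were in 1 library. With counts pooled, and against a floor of 3 counts over the neuronal group, Foxc2 was at least 12.2-fold lower in neuronal nuclei after corn oil. After agonist it was at least 6.62-fold lower. These bounds cover counting error only, not the spread between libraries, and rest mainly on 1 library of each non-neuronal group. Without any filter on low counts, edgeR called Foxc2 lower after corn oil (adjusted p = 0.0267) and not after agonist (adjusted p = 0.148). The model Gm20388 overlaps Foxc2 on the same strand, so part of its reads could be split between the models.

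Most Foxc2 counts came from 2 libraries with little of the other lymphatic RNA. Corn oil replicate 2 had the lowest level of its group for Prox1, Flt4, Lyve1, Mmrn1, Reln and Ccl21a. Agonist replicate 1 had the lowest of its group for Flt4, Lyve1, Mmrn1, Reln and Ccl21a. At 13.1 and 8.69 CPM these libraries stood above the 6 others, which reached at most 0.897 CPM. This was seen after the values were known and was not tested.

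**Figure D2:**
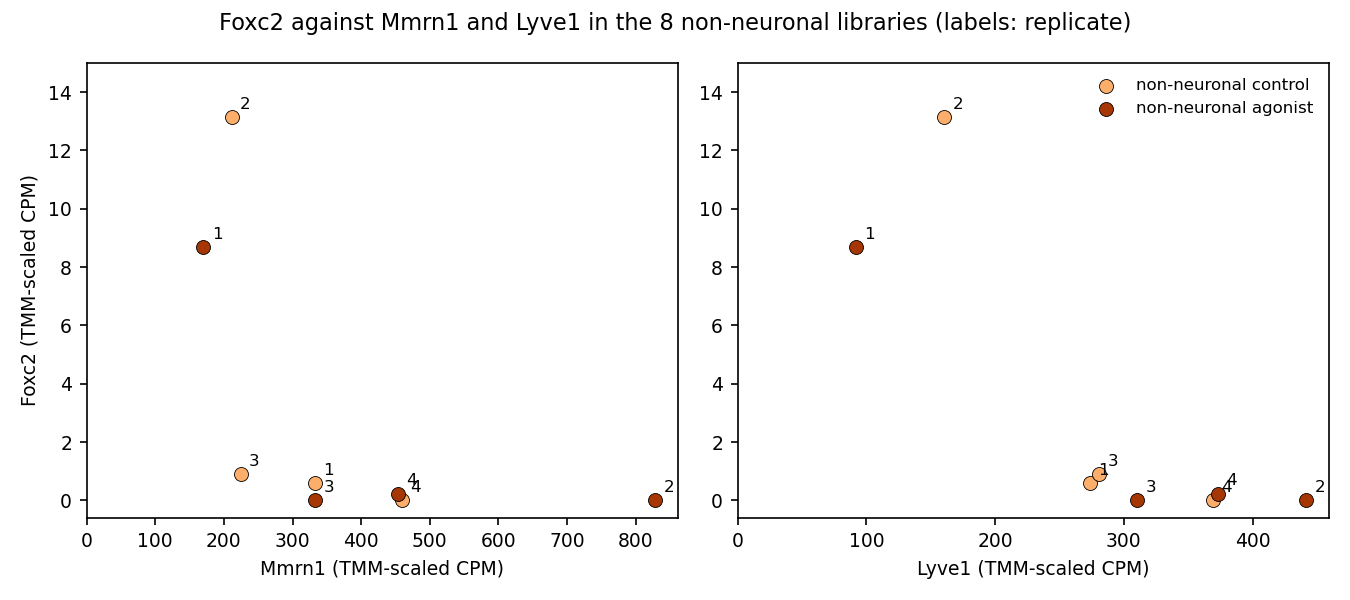
Foxc2 (vertical axis) against Mmrn1 (left) and Lyve1 (right) in the 8 non-neuronal libraries, in TMM-scaled CPM on linear axes; each point is a library, labelled with its replicate number. Corn oil replicate 2 and agonist replicate 1 hold nearly all Foxc2 and have the lowest Mmrn1 and Lyve1 of the 8.

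The receptor Flt4, which binds VEGF-C and VEGF-D, lies on chromosome 11 at 49609263-49652739. It was at 66.3, 43.9, 58.6 and 125 CPM in non-neuronal corn oil libraries and at 2.09, 1.03, 1.69 and 1.05 CPM in neuronal ones. The groups did not overlap, and the log2 fold change was -5.53 (SE 0.54, adjusted p = 1.62e-05, edgeR).

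The surface proteins divided. Lyve1, a hyaluronan receptor that some tissue macrophages also carry, lies on chromosome 7 at 110850607-110863239. Its non-neuronal corn oil libraries held 274, 161, 281 and 369 CPM, and the neuronal ones 0.524, 6.16, 1.21 and 2.09 CPM. Every non-neuronal library was above every neuronal one, with a log2 fold change of -6.66 (SE 0.60, adjusted p = 9.77e-06, edgeR). The value was -7.56 without neuronal corn oil replicate 2, which held 24 of the 39 neuronal Lyve1 counts. A list of 10 macrophage genes, of which 6 of 8 tested were called lower in neuronal nuclei, summed to 237 to 328 CPM in the non-neuronal corn oil libraries. C1qa and C1qb had no counts in the neuronal ones. The part of macrophages in the Lyve1 level was not tested.

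Pdpn (podoplanin), a mucin-type protein also known from fibroblastic and mesothelial cells, lies on chromosome 4 at 143267431-143299564. It was at 3.85, 6.01, 11.4 and 8.54 CPM in non-neuronal corn oil libraries and at 5.24, 13.1, 20.1 and 8.63 CPM in neuronal ones. The ranges overlapped, and no difference was called: the log2 fold change was 0.75 (95% interval -0.71 to 2.21, adjusted p = 0.475, edgeR). The interval lies above the values of the 6 other tested genes. In the same libraries 10 fibroblast genes summed to 371 to 1673 CPM in non-neuronal nuclei and 13.9 to 66.7 CPM in neuronal nuclei, and 8 mesothelial genes to 184 to 294 CPM and 1.54 to 13.1 CPM. The mesothelial genes Upk3b and Gpm6a had no counts in neuronal corn oil libraries, and every fibroblast gene had some. The source of the neuronal Pdpn counts was not tested.

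The secreted products were low or absent in neuronal nuclei. Mmrn1 (multimerin 1), an extracellular glycoprotein, lies on chromosome 6 at 60924976-60989378. It was at 332, 211, 224 and 459.6 CPM in non-neuronal corn oil libraries and at 0.524, 0.257, 1.21 and 3.66 CPM in neuronal ones. The groups were apart by a log2 fold change of -7.65 (SE 0.62, adjusted p = 4.49e-06, edgeR), or -8.64 without neuronal corn oil replicate 4.

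Reln (reelin), a glycoprotein known from neuronal migration that lymphatic endothelium also secretes, lies on chromosome 5 at 21884454-22344702. Non-neuronal corn oil libraries held 199, 97.2, 135 and 305 CPM, and neuronal ones 1.57, 2.82, 1.69 and 9.41 CPM. The neuronal sort was lower in every library, with a log2 fold change of -5.47 (SE 0.62, adjusted p = 4.54e-05, edgeR), or -6.36 without neuronal replicate 4. Several small gene models lie within Reln on either strand.

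Ccl21a, the chemokine that draws CCR7-bearing dendritic and T cells, lies on chromosome 4 at 42772860-42773993. It was at 154, 72.8, 93.9 and 123 CPM in non-neuronal corn oil libraries and at 0, 0, 0 and 2.35 CPM in neuronal ones. The log2 fold change was -7.41 (SE 0.90, adjusted p = 7.73e-05, edgeR), and -11.58 without neuronal replicate 4, which leaves the neuronal side at 0 counts of Ccl21a itself. The size is thus set by 9 counts of 1 library. The model 4930578G10Rik overlaps Ccl21a on the opposite strand.

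Adding the 4 Ccl21 copies to Ccl21a, a choice made after the data were seen, gave a log2 fold change of -5.81 (SE 0.73, adjusted p = 9.51e-05, edgeR) after corn oil. Ccl21a held 90.5%, 91.5%, 94.3% and 57.6% of the counts of all copies in the non-neuronal corn oil libraries and 76.0%, 61.8%, 59.0% and 67.7% in the agonist ones. Corn oil replicates 1 to 3 were above all agonist libraries, and replicate 4 was below them all. How shared reads were divided among the copies was not tested.

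After agonist the same 6 genes were called lower in neuronal nuclei, against 6.97% of 14065 genes tested, and their groups did not overlap, as was so in that direction for 9.96% of genes. The limit given for corn oil, that most of these genes passed the filter through the non-neuronal group alone, holds here too. The summed level of the 8 genes was 1660 ± 737 CPM in non-neuronal and 19.0 ± 5.90 CPM in neuronal nuclei (SD, n = 4). The median log2 fold change of the 7 tested genes was -7.59, against -0.15 over all genes. Lyve1 had 1, 1, 1 and 2 counts in the neuronal agonist libraries, and its log2 fold change was -9.79 (SE 0.75, adjusted p = 6.09e-06, edgeR). Those of Mmrn1 (-8.92, SE 0.80) and Flt4 (-7.59, SE 0.89) were next in size where the neuronal counts were in every library, 14 and 11 in all. The log2 fold changes of Prox1, Reln and Ccl21a were -6.14, -6.54 and -8.26.

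Neuronal replicate 4 of each treatment held all neuronal counts of Ccl21a, 6 after agonist and 9 after corn oil. Over all Ccl21 copies, however, neuronal libraries had 0, 8, 0 and 6 counts after agonist and 8, 8, 0 and 20 after corn oil. Other replicates thus had counts assigned to a Ccl21 copy too. Replicate 4 also held 8 of 14 and 14 of 22 of those of Mmrn1. Without agonist replicate 4, the log2 fold change after agonist was -9.75 for Mmrn1 and -11.90 for Ccl21a; without non-neuronal agonist replicate 4 it was -7.55 for Ccl21a. Pdpn again was not called: its log2 fold change was 0.36 (95% interval -1.98 to 2.7, adjusted p = 0.889, edgeR), and -0.51 without neuronal agonist replicate 1, whose 22.9 CPM stood above 4.38, 4.15 and 5.83 CPM in the others.

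**Figure D3:**
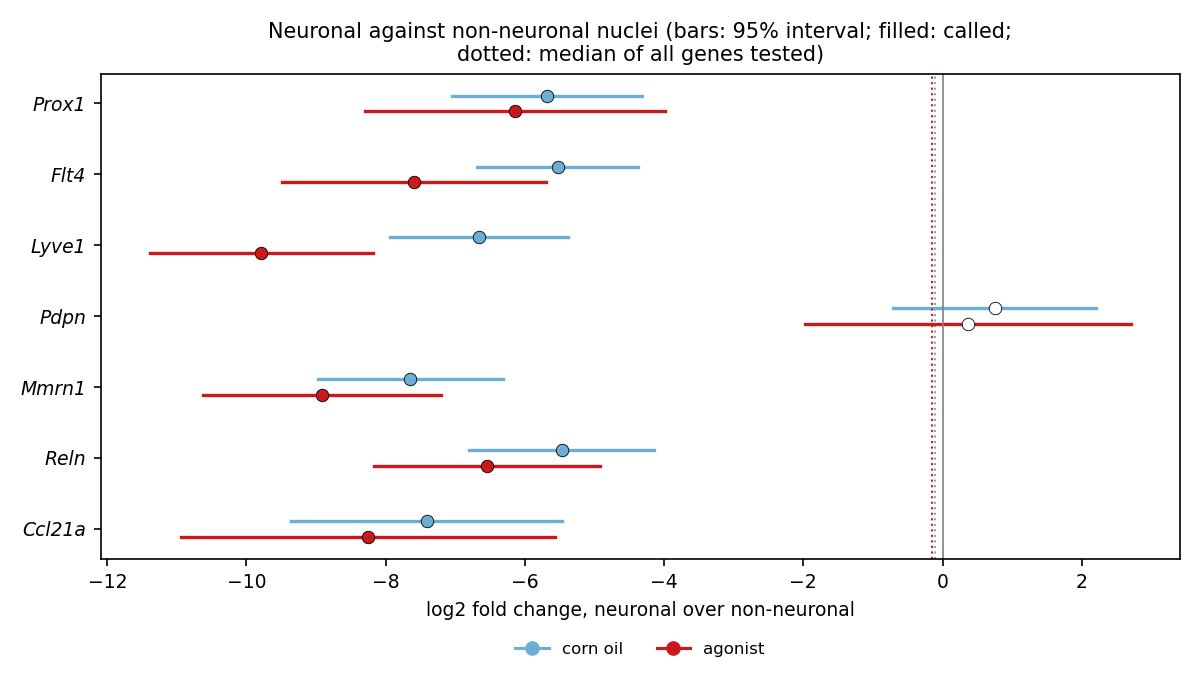
Log2 fold change of neuronal over non-neuronal nuclei (horizontal axis) for the 7 tested genes after corn oil (blue) and after agonist (red), with 95% intervals; filled points are called, open points are not, and dotted lines mark the medians of all genes tested. The 6 called genes lie between -5.47 and -9.79, and Pdpn lies on the other side of 0 with intervals that include it.

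Seen as a share, the summed lymphatic level of neuronal libraries was 2.22% of that of non-neuronal libraries after corn oil and 1.15% after agonist. Pdpn made up 30% to 74.1% of the neuronal corn oil counts of the 8 genes and 0.350% to 1.27% of the non-neuronal ones. Without Pdpn, left out after the values were seen, the shares were 1.1% and 0.586%. The list of 12 blood endothelial genes came to 10.7% and 3.47%, and that of 10 macrophage genes to 3.19% and 2.46%. These are ratios of mean sums, given as a description.

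Levels between genes were compared per kilobase of exon in the non-neuronal libraries. After corn oil Ccl21a was highest at 128 ± 40.8 CPM per kilobase (SD, n = 4), then Lyve1 at 92.9 ± 29.3 and Mmrn1 at 52.3 ± 19.7. A gap followed, in which no library values overlapped, to Prox1 at 10.3 ± 6.48, Flt4 at 8.92 ± 4.33 and Reln at 7.75 ± 3.83 CPM per kilobase. Pdpn at 4.09 ± 1.79 and Foxc2 at 1.34 ± 2.32 were lowest. Neighbours in this order overlapped in their library values everywhere else. After agonist Reln, at 19.8 ± 8.76 CPM per kilobase, came before Prox1 at 19.1 ± 10.6 and Flt4 at 16.8 ± 11.8, and these 3 overlapped, so their order was not resolved in either group.

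Among 39 other genes of lymphatic development and function, 26 could be tested between the populations after corn oil. Of these, 9 were lower and 2 higher in neuronal nuclei, where 13.5% and 11.8% of all genes were called lower and higher. Here and after agonist, genes that passed the filter through the non-neuronal group alone could hardly be called higher. The median of the 26 log2 fold changes was -1.34. The largest differences were those of Kdr (VEGFR-2) at -6.79 (SE 0.88), Ephb4, a receptor for ephrin-B2, at -6.11 (SE 0.84), Stab1, a scavenger receptor that macrophages also carry, at -5.71 (SE 0.64), and S1pr1, a sphingosine phosphate receptor, at -5.21 (SE 1.18). Nr2f2, the nuclear receptor that acts with Prox1, was at -4.87 (SE 0.72), and Itga9, the integrin chain of valve formation, at -4.67 (SE 0.57). Higher in neuronal nuclei were Lrp8, a reelin receptor, at 2.86 (SE 0.48) and Calcrl, the adrenomedullin receptor chain, at 1.65 (SE 0.44). Kdr and Cdh5, also among the 9, are in the blood endothelial list too.

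After agonist, 28 of the 39 were tested, and 9 were lower and 1 higher, beside 6.97% and 6.67% of all genes. The median of the 28 log2 fold changes was -1.93. S1pr1 and Ephb4 had 0 neuronal counts. Against a floor of 3 counts over the group, and for counting error only, they were at least 123-fold and at least 65.6-fold lower. Stab1 (-8.42, SE 0.88), Kdr (-8.41, SE 1.04) and Nr2f2 (-6.56, SE 1.1) followed. Ackr2, a decoy chemokine receptor of lymphatic vessels, had 2 neuronal against 148 non-neuronal counts, a ratio of 61.2 (95% interval 16.7 to 510.2, counting error only). Lrp8 was the gene called higher, at 3.63 (SE 0.88).

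The ligand genes of Flt4 were low, with the highest group mean at 12.4 ± 10.4 CPM (SD, n = 4), that of Vegfd in neuronal agonist libraries. Vegfc averaged 8.83 ± 9.56 CPM in non-neuronal and 0.523 ± 0.880 CPM in neuronal corn oil libraries and was not tested between them. Vegfd averaged 6.35 ± 2.83 and 6.97 ± 2.79 CPM (SD, n = 4), with a log2 fold change of 0.22 (95% interval -1.32 to 1.75, adjusted p = 0.862, edgeR). Ccbe1 and Adamts3, which mature VEGF-C, were not called either, at -0.70 (95% interval -2.25 to 0.85) and -1.5 (95% interval -3.05 to 0.06).

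The agonist comparison asked whether AhR activation moved these genes within a population. In non-neuronal nuclei none of the 7 tested genes was called by edgeR's quasi-likelihood test, in a comparison that called 2 of 14846 genes (0.0135%), and DESeq2 called none of the 7 and 35 genes in all. None of the 7 had groups without overlap, while 1.25% of all genes did so upward and 2.17% downward. The 2 genes, named after their values were seen, were Cyp1a1, a known AhR target, and Serpina3n, an acute-phase protease inhibitor, both higher after agonist. At an unadjusted p under 0.05 there was 1 of the 7, Reln, and 715 of the 14846 genes (4.82%).

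Reln had the largest response of the 7. Its agonist libraries held 193, 651, 431 and 609 CPM, set against 199, 97.2, 135 and 305 CPM after corn oil. Agonist replicates 2 to 4 were above every corn oil library, and replicate 1 was within their range. The log2 fold change was 1.41 (95% interval 0.49 to 2.34, adjusted p = 0.954, edgeR). The estimate ran from 1.04 to 1.78 over the other settings, and its adjusted p from 0.123 to 1.

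For Flt4 the 4 agonist libraries were at 57.1, 187, 59.1 and 252 CPM, and for Prox1 at 109, 177, 278 and 76.2 CPM. Both overlapped their corn oil libraries. The log2 fold changes were 0.98 (95% interval -0.20 to 2.16) for Flt4 and 0.94 (95% interval -0.20 to 2.08) for Prox1.

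Mmrn1, at 170.0, 829, 333 and 454 CPM after agonist, had a log2 fold change of 0.60 (95% interval -0.33 to 1.53). Lyve1, at 91.8, 442, 310.4 and 373 CPM, had 0.22 (95% interval -0.70 to 1.14), and Ccl21a, at 48.0, 86.2, 110.1 and 278 CPM, had 0.29 (95% interval -0.80 to 1.38). All 3 overlapped their corn oil libraries. The sign of the Lyve1 value turned with library-size scaling (-0.12) and without agonist replicate 2 (-0.017), and that of Ccl21a without agonist replicate 4 (-0.40). Summed over the copies, Ccl21 had a log2 fold change of 0.56 (95% interval -0.53 to 1.65).

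Pdpn, at 7.56, 7.22, 11.2 and 2.08 CPM after agonist, gave -0.04 (95% interval -2.38 to 2.30), an interval too wide to exclude a change of several-fold either way.

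**Figure D4:**
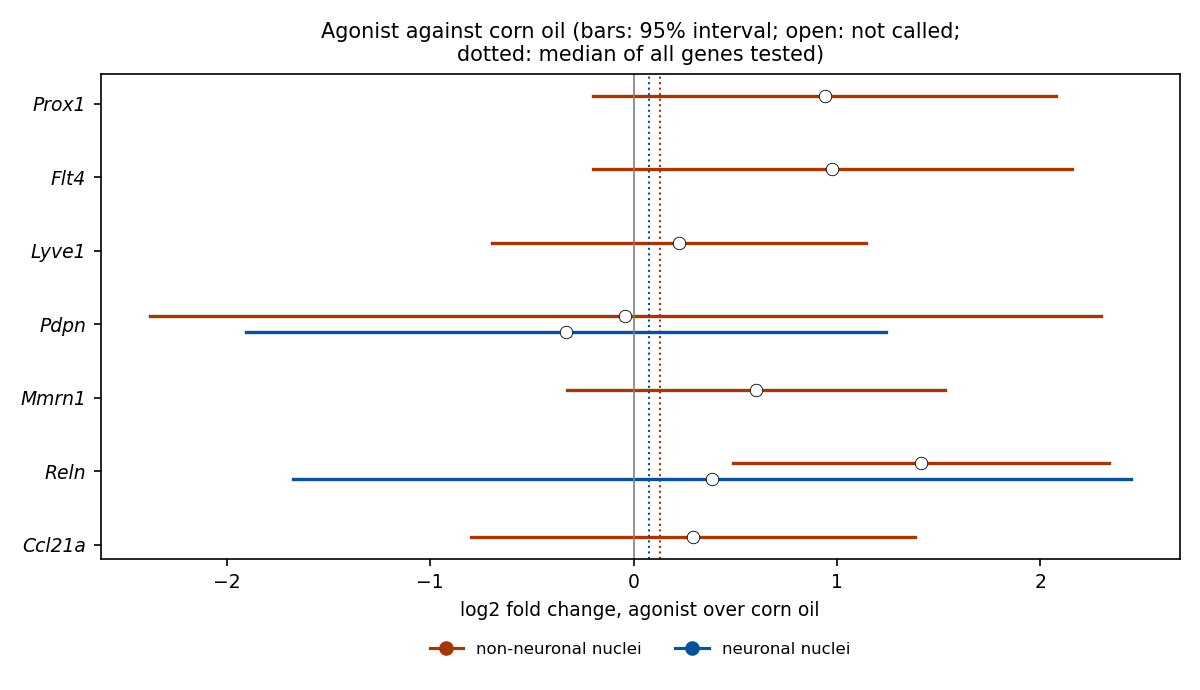
Log2 fold change of agonist over corn oil (horizontal axis) in non-neuronal (brown) and neuronal (blue) nuclei with 95% intervals; open points are not called, and dotted lines mark the medians of all genes tested. Reln in non-neuronal nuclei, at 1.41, is the estimate whose interval lies wholly above 0; only Pdpn and Reln had enough counts for the test in neuronal nuclei.

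The median response of the 7 genes in non-neuronal nuclei was 0.60, beside 0.13 over all genes tested, 0.66 for 11 tested blood endothelial genes and 0.45 for 8 tested macrophage genes. With library sizes alone the median of all genes was -0.28, so the fold changes are read relative to it. Library by library, the summed lymphatic level was 685, 2378, 1533 and 2044 CPM after agonist and 1098, 633, 897 and 1547 CPM after corn oil. Blood endothelial genes summed to 179.9, 364, 571 and 349 CPM after agonist and 229, 167, 155 and 354 CPM after corn oil. Macrophage genes summed to 237, 748, 370.3 and 273 CPM after agonist and 328, 273, 266 and 237 CPM after corn oil. All 3 lists were lowest of the agonist group in replicate 1, the library with 42.8% mitochondrial counts. Epithelial genes summed to 1226 to 6442 CPM after agonist and 1658 to 14944 CPM after corn oil. The part of these differences in the responses was not tested. Without the 2 libraries over 30% mitochondrial counts the Reln log2 fold change was 1.50 (adjusted p = 0.438, edgeR).

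The makeup of the lymphatic counts in non-neuronal nuclei differed between treatments in the shares of Reln and Lyve1. Reln made up 28.2%, 27.4%, 28.1% and 29.8% of the counts of the 8 genes in the non-neuronal agonist libraries and 18.2%, 15.4%, 15% and 19.7% in the corn oil ones. The groups did not overlap, and the agonist shares lay close together although the summed levels of those libraries ran from 685 to 2378 CPM. Lyve1 made up 13.4% to 20.2% after agonist and 23.9% to 31.3% after corn oil, again without overlap. The other 6 genes overlapped: Mmrn1, for example, had 21.7% to 34.8% and 25.0% to 33.4%.

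**Figure D5:**
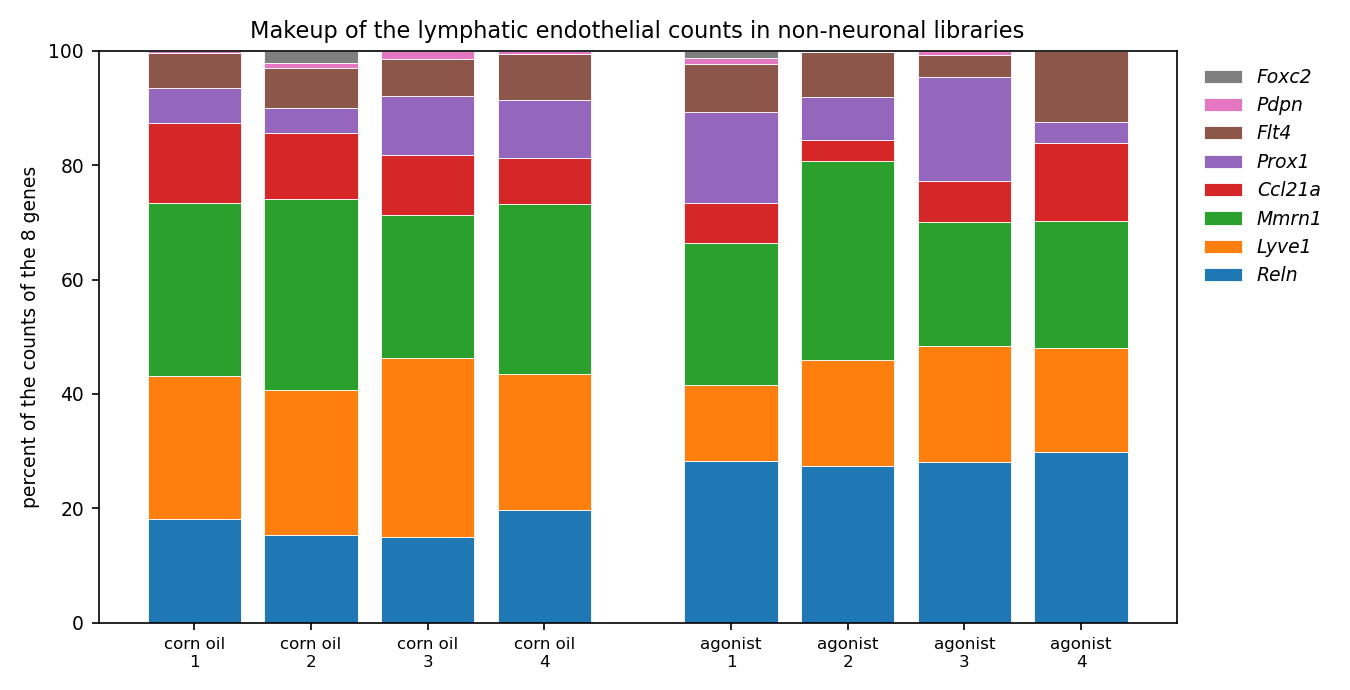
Share of each gene in the counts of the 8 genes (vertical axis, percent) in each non-neuronal library, 4 after corn oil and 4 after agonist. Reln, at the base, takes 27.4% to 29.8% after agonist and 15% to 19.7% after corn oil, and Lyve1, above it, 13.4% to 20.2% and 23.9% to 31.3%.

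Set against the summed counts of the 7 other genes, Reln stood at 37.7% to 42.4% after agonist and 17.6% to 24.5% after corn oil. Lyve1 stood at 15.5% to 25.4% after agonist and 31.4% to 45.6% after corn oil, against a sum that includes Reln. Of 14846 genes, 0.135% were higher and 4.44% lower without overlap in their ratio to the other lymphatic genes. For a gene outside the list that sum includes Reln and Lyve1, so these shares are not a matched background for either. There were 1.39 to 2.11 Reln counts per Lyve1 count after agonist and 0.479 to 0.825 after corn oil. With all Ccl21 copies counted, the share of Reln was 26.8% to 28.0% and 14.9% to 18.6%, and that of Lyve1 13.1% to 19.3% and 22.6% to 31.1%. These ratios do not depend on library scaling. They were looked at after the values were known, so they are a description with no test.

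In neuronal nuclei 2 of the 8 genes had enough counts to be tested for the agonist, and neither was called; edgeR called 0 of 14182 genes there (0%), with 711 at an unadjusted p under 0.05, and DESeq2 called 9. Reln was at 1.0, 1.75, 9.60 and 8.05 CPM after agonist and 1.57, 2.82, 1.69 and 9.41 CPM after corn oil, which overlap. Its log2 fold change was 0.38 (95% interval -1.68 to 2.45), and -0.12 without agonist replicate 3. Pdpn had -0.33 (95% interval -1.91 to 1.24), and 0.07 without corn oil replicate 3. The other genes had at most 24 counts in any neuronal library. Without the filter on low counts edgeR called none of them, and Lyve1 was at -2.85 (95% interval -6.23 to 0.53, adjusted p = 0.498).

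Whether the agonist response differed between populations was tested as an interaction. No gene was called among 18566 (0%) by edgeR, with 1484 at an unadjusted p under 0.05, and DESeq2 called 103 and none of the 7. Of the 7 genes, Lyve1 and Flt4 were under that unadjusted limit. Lyve1 had a log2 difference, neuronal minus non-neuronal, of -3.02 (95% interval -4.83 to -1.21, adjusted p = 0.413, edgeR). Without a filter on low counts it was called (-3.0, 95% interval -4.45 to -1.54, adjusted p = 0.0267, edgeR). That interval has normal width, so this call took the spread between libraries as known. Over the other settings the adjusted p ran up to 0.834, and without neuronal corn oil replicate 2 the difference was -2.07. It rests on 5 neuronal counts after agonist and 39 after corn oil. Flt4 had -1.94 (95% interval -3.75 to -0.13, adjusted p = 0.588, edgeR). The others were Mmrn1 -1.16, Reln -0.97, Ccl21a -0.77, Prox1 -0.36 and Pdpn -0.25; the last 5 had intervals that include 0.

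None of the pathway genes was called after agonist, among 32 tested in non-neuronal nuclei and 17 in neuronal nuclei, and their median log2 fold changes were 0.21 and 0.09, beside 0.13 and 0.08 over all genes. These medians cover values of both signs, and a few genes, named here after their values were seen, had groups without overlap. In non-neuronal nuclei Stab1 was at 99.8 to 173 CPM after agonist and 31.9 to 62.9 CPM after corn oil, with a log2 fold change of 1.71 (95% interval 0.76 to 2.66, adjusted p = 0.739, edgeR). Ephb4 was at 11.7 to 31.4 CPM and 46.6 to 97.9 CPM, with -1.89 (95% interval -3.24 to -0.54, adjusted p = 0.954). These were 1 higher and 1 lower gene of 32, where 1.25% and 2.17% of all 14846 genes were without overlap upward and downward. In neuronal nuclei Nfatc1, a factor of valve development, was at 67.5 to 403 CPM and 34.8 to 49.8 CPM, with 1.96 (95% interval 0.83 to 3.08, adjusted p = 0.903, edgeR). It was the 1 higher gene of 17 there, where 1.47% of all genes were without overlap upward, and Emilin1 and Stab2 were lower without overlap, as 2.16% of all genes were.

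By likeness of pattern over the 8 non-neuronal libraries, 5 genes came closest to the mean log2(CPM + 1) of the 8 genes among 14799 compared. They were Arap3 (Pearson's r = 0.97), Sms, spermine synthase (0.96), Slc2a4, the insulin-responsive glucose transporter (0.94), Col23a1, a transmembrane collagen (0.94), and Snx2, a sorting nexin (0.94). Without the 2 libraries farthest from the median the r values were 0.95, 0.94, 0.91, 0.93 and 0.89. The 8 genes did not all follow this pattern themselves: against the mean of the 7 others, r was 0.89 for Reln, 0.82 for Mmrn1, 0.70 for Flt4, 0.62 for Lyve1, 0.39 for Prox1, 0.20 for Ccl21a, -0.33 for Pdpn and -0.91 for Foxc2. The 5 named genes are the top of a ranking of many genes over few libraries, which share treatment, depth and RNA quality, and are given as a description.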

How the data were processed

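RNA of sorted colonic nuclei was measured in 16 libraries, 4 per group. The deposited values are expected counts per Ensembl gene that the authors made with RSEM, per the file headers. Per the submitters' processing notes, RSEM 1.3.0, STAR 2.5.2, DESeq2 1.10.1 and the build GRCm38 were used; neither the annotation release nor the strand setting was given in the sources used here. The column headers carry a project name about AhR knockout mice, whereas groups were taken from the labels. Per the labels' protocols, cDNA was amplified and read as 75 bp single-end reads, without molecular identifiers, so intervals on counts cover counting error only. An expected count divides reads that match several genes, which affects near-identical copies.

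Expected counts were rounded. Each of 5 comparisons was fitted over all genes kept by filterByExpr (minimum count 10, minimum total 15) with edgeR 4.0.16 (R 4.3.3). Scaling was by TMM, and the test was the robust, two-sided quasi-likelihood F-test. A call needed a p under 0.05 after Benjamini-Hochberg adjustment over the genes tested. Population comparisons and agonist responses used only their own groups, and the interaction used all 4. The agonist responses share no samples with each other, but each population comparison shares its libraries with them. Displayed levels were scaled over all 16 libraries; levels per kilobase used GENCODE M21 union exon length. The fits were also run on simulated data, in which all libraries shared a mean profile and a fixed dispersion, apart from planted changes. That setting lacks the population differences of these libraries and does not show how the fits behave on them. Of 51912 identifiers, 51633 had a symbol. No pair of replicates differed by as little as sampling noise (lowest chi-square per degree of freedom 9.67 over 24 pairs).

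The 8 genes and all lists were chosen with earlier results of these data known. All 8 genes were named in every comparison; of 39 pathway genes, those called were named up to the 6 largest per direction; the 5 genes most alike were named by Pearson's r. Alternatives were library-size scaling, DESeq2 1.42.0, no filter, 1 fit of all groups, a replicate block, leaving out each replicate, leaving out libraries over 30% mitochondrial counts or the mitochondrial genes, and summed Ccl21 copies. Lists of lymphocyte, glial, smooth muscle and interstitial cell of Cajal genes were measured but support no statement: in corn oil libraries their mean sums in neuronal nuclei were 4.55%, 15.4%, 6.84% and 122% of those in non-neuronal nuclei.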

Additional observations from a re-analysis of the deposited data

Results flagged for a closer look

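In 7 of 32 groups examined (8 genes in 4 groups), 1 library stood apart from the other 3 by a gap beyond Dixon's 95% limit for 4 values. Chance flags about 1 in 20 groups of normally distributed values, a rate that does not carry over to groups of a few counts: 0, 0, 0 and any count always passes the limit, and a group of zeros never does. Foxc2 was such a case in both non-neuronal groups, at 8.69 CPM in agonist replicate 1 and 13.1 CPM in corn oil replicate 2. Pdpn reached 22.9 CPM in neuronal agonist replicate 1. The remaining cases were all neuronal replicate 4: Ccl21a at 1.67 CPM after agonist and 2.35 CPM after corn oil, Reln at 9.41 CPM after corn oil, and Lyve1 at 0.555 CPM after agonist, which is 2 counts against 1 in each other library.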

How the results depend on the processing

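Over 494 recomputed values of single genes, 481 kept their direction and their side of the threshold. The 6 genes called lower in neuronal nuclei after corn oil and the 6 after agonist remained 6 under every setting run, except that 7 were called after corn oil with no filter. Without 1 replicate at a time these counts were 6 to 6, and those of the agonist responses and of the interaction 0 to 0. Signs turned for uncalled genes. The agonist response of Lyve1 in non-neuronal nuclei was -0.12 with library-size scaling. Without 1 replicate at a time, log2 values there ran from -0.017 to 0.49 for Lyve1, -0.38 to 0.27 for Pdpn and -0.40 to 0.53 for Ccl21a. In neuronal nuclei they ran from -0.12 to 1.31 for Reln and -1.3 to 0.070 for Pdpn. The Pdpn population difference after agonist ran from -0.51 to 0.68. In the interaction they ran from -1.05 to 0.0061 for Prox1, -1.28 to 0.027 for Pdpn and -4.41 to 3.40 for Ccl21a.

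With no filter 1 of the 8 genes, Lyve1, was called in the interaction (-3.0). The fits with no filter gave these genes intervals of normal width, so their p-values leave out the uncertainty of the spread between libraries. Genes called between populations after agonist were 1918, with 2937 under DESeq2, 3324 with no filter and 4590 in 1 fit of all groups. For the agonist in neuronal nuclei 0 became 9 under DESeq2 and 152 with no filter. In non-neuronal nuclei 2 became 0 with library-size scaling, 35 under DESeq2, 88 with no filter, 11 in 1 fit and 1 without libraries over 30% mitochondrial counts. In the interaction 0 became 103, 110 with no filter and 7 without those libraries. Without 1 replicate these counts ran from 3399 to 4735 after corn oil, 1553 to 2064 after agonist, 0 to 0 and 0 to 2 for the responses, and 0 to 9 for the interaction. The causes were not tested. Library-size scaling changed the split of higher and lower calls from 1811 and 2065 to 2084 and 1679 after corn oil, and from 938 and 980 to 1332 and 649 after agonist; the median of all genes moved from -0.11 to 0.11 and from -0.15 to 0.43. It gave -5.49 for Prox1, -8.30 for Mmrn1 and -5.95 for Reln after agonist.

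Replicate numbers gave no clear pairing of the samples: same-numbered libraries correlated from -0.11 to 0.20. The best match had the same number for 2 (corn oil) and 1 (agonist) of 4 libraries between populations. Between treatments it did for 1 (neuronal) and 2 (non-neuronal) of 4, and replicate 4 was among them each time. The labels do not say what a number marks, so whether the samples are paired is not known. With the replicate block 3731, 1941, 0, 2 and 0 genes and 6, 6, 0, 0 and 0 of the 8 genes were called in the 5 comparisons, and Ccl21a after agonist was -9.03. Depth limits the neuronal values of all genes but Pdpn. Reln, though tested there for the agonist, had 4 to 37 counts per neuronal agonist library and 6 to 36 per neuronal corn oil library.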
